A study of Mus musculus with 4 samples.

Results

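The transcription factor NRF2 (gene Nfe2l2), its inhibitor Keap1 and 8 of its antioxidant target genes were followed through the cell types of the mouse lung. The 10 genes were picked by symbol among the 57010 genes of a single-cell count table, and all 10 were found. Gclc encodes the catalytic subunit of the first enzyme of glutathione synthesis. With both pools summed it was highest in a small epithelial cluster that shares markers with alveolar type 2 and secretory cells. There it was 2.21-fold higher in the pool of Cre-positive mice than in the pool of Cre-negative mice. In the Cre-negative pool alone, its level in that cluster was near that of alveolar type 2-like cells. Slc7a11, the cystine importer, was highest in neutrophil-like cells. In ciliated-like cells of the Cre-negative pool, all 9 measured members were higher in cells with Y-linked transcripts than in cells with Xist transcripts. Their median log2 ratio was 0.48, while the median over all genes showed no difference and 16.1% of all genes differed by at least 1.5-fold. The intervals of Keap1 and Slc7a11 covered no difference. This split was chosen after the data were seen, and the cells with Y-linked transcripts may come from few mice.

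NRF2 is a basic leucine zipper transcription factor that pairs with small MAF proteins and binds the antioxidant response element. In unstressed cells KEAP1 holds NRF2 and presents it to the CUL3 ubiquitin ligase, so that NRF2 protein is broken down as it is made. Oxidants and electrophiles modify cysteines of KEAP1, NRF2 then accumulates, and genes of glutathione synthesis, thioredoxin recycling, quinone reduction, haem breakdown and NADPH supply are transcribed. The control acts mainly on the protein, so transcripts of Nfe2l2 and Keap1 do not report NRF2 activity by themselves. In the lung the pathway is known for its part in handling inhaled oxidants.

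The antioxidant response element has the core TGACNNNGC, and the places where this core occurs near the starts of the member genes are printed to show what such a sequence looks like in the members that hold one. RefSeq promoter windows (build GRCm38.p6, 250 bases before to 50 bases after each start, 300 bases in all) were held for 8 of the 10 genes, as 10 windows. The core was searched on both strands and occurred near 5 of the 8 genes. It occurred in 4071 of all 32851 promoter windows (12.4%). Each sequence below reads 5′ to 3′ on the strand of the gene, with the 9 bases that match in capitals, and a capital stretch that begins with GC is a match on the opposite strand. None of these matches overlapped a match to TGANTCA, the site of the related AP-1 factors.
Nfe2l2, chr2:75704869-75704913, minus strand, match 240 bases before the start: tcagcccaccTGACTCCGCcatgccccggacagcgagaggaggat
Gclm, chr3:122245397-122245457, plus strand, match 134 bases before the start: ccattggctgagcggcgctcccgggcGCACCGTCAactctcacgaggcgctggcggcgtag
Txnrd1, chr10:82859088-82859148, plus strand, match 92 bases before 1 of its 3 starts: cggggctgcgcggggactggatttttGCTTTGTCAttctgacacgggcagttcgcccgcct
Srxn1, chr2:152105542-152105570, plus strand, match from base 29 after the start: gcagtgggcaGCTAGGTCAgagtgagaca
G6pdx, chrX:74428903-74428963, minus strand, match 57 bases before the start: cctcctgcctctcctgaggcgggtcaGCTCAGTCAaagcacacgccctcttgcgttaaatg
A match is a run of letters and was not measured as a bound site. The windows of Keap1, Nqo1 and Slc7a11 held no such run, which says only that these letters are not in these windows.

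The cells came from the lungs of C57Bl6/J mice aged 8 weeks. The Cre_Pos pool joined 6 mice of genotype Shh.Cre+/Flox-p73, in which Cre under the Shh gene can delete the p73 (Trp73) segment floxed at E7-E9, and the Cre_Neg pool joined 6 littermates without Cre that are homozygous for the same floxed allele. Shh is active in the developing lung epithelium, so endothelial, stromal and immune cells of the Cre_Pos pool are not expected targets of the deletion. Cells were depleted of CD45+ cells, enriched for Epcam+ cells and sorted for live cells, so the proportions of cell types are those of the preparation. Each of the 4 samples is a sublibrary, a technical aliquot that holds cells of both pools. With 1 pool per genotype no test between genotypes is possible: the 95% intervals given with values cover counting error only, and differences between mice within a pool are not visible.

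The table held 647296 barcodes, of which 16579 had at least 500 genes, beside the 20000 cells that the study names for the kit run. After removal of cells with over 15% mitochondrial UMIs (unique molecules) and of called doublets, 16356 cells remained, 7696 from Cre_Neg with 80279069 UMIs and 8660 from Cre_Pos with 86915171 UMIs. Median UMIs per cell lay between 7084 and 10368 over the pools and sublibraries. Among the barcodes with at least 500 genes, 285 of 16290 well combinations occurred in more than 1 sublibrary. Trp73, the targeted gene, stood at 85.8 CPM (its UMIs per 1e6 UMIs of the cells) in Cre_Neg and 11.8 in Cre_Pos cells as a whole. Within ciliated-like cells its level was 334 in Cre_Neg and 312 in Cre_Pos, and counts per gene cannot tell whether the floxed segment was present. Clustering gave 31 clusters, which were named "-like" from marker genes and joined into 20 classes of at least 50 cells. One of these, cluster 3, stayed unnamed: it passed 7 of 8 alveolar type 2 (AT2) markers and 5 of 8 secretory markers. It held 179 Cre_Neg and 240 Cre_Pos cells, led by Scgb1a1, Cyp2f2, Cbr2 and Sftpa1. The general capillary-like class also took in cluster 12 (486 cells, 5 of 6 venous markers) and cluster 17 (203 cells, 6 of 7 arterial markers).

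The pools differed in which cells they held, which bears on every value taken over all cells. Ciliated-like cells numbered 1202 in Cre_Neg and 120 in Cre_Pos. General capillary-like cells numbered 2167 and 4415, alveolar macrophage-like cells 201 and 3, and neutrophil-like cells 59 and 4. They also differed in sex-linked transcripts. Of the ciliated-like cells, 884 Cre_Neg cells had Xist and no Y-linked UMIs and 177 had UMIs of 4 Y-linked genes and no Xist, whereas in Cre_Pos the numbers were 3 and 101. Pool and sex-linked transcripts therefore cannot be told apart in the undivided ciliated-like comparison, and comparisons are given below within each kind of cell. Cells were not traced to single mice, so the cells with Y-linked UMIs may come from few animals.

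Levels are given in CPM of the class and are compared within a gene, between classes or pools. Unless a pool is named, the order of classes is that of both pools summed. Nfe2l2 was read in every class, with 27267 UMIs in kept cells. Its level was highest in neutrophil-like cells (296 CPM, 95% interval 225 to 383), followed by monocyte-like cells (270, 247 to 294) and AT2-like cells (258, 253 to 262). Intervals of neighbouring classes overlapped along the whole order except between AT2-like cells and cluster 3 (233 CPM), and between aerocyte capillary-like cells (124 CPM) and the ciliated and deuterosomal class (97.7 CPM). The lowest levels were those of B cell-like (67.7), neuroendocrine-like (66.9) and pericyte-like cells (65.1 CPM). Free RNA, read from barcodes with at most 50 UMIs, held 125 CPM of Nfe2l2 in Cre_Neg and 127 in Cre_Pos, so the lower classes were at or under the level of free RNA. Among epithelial cells AT2-like cells and cluster 3 stood highest, whereas AT1-like cells, the flat alveolar epithelium, had 83.0 CPM, rank 17 of 20.

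Keap1, the inhibitor, had the smallest ratio of highest to median class among the 10 genes. It had 4711 UMIs, and its highest level, in secretory-like cells (33.8 CPM, 27.1 to 41.7), was 1.24 times the median of the 20 classes (27.3 CPM). The lowest was 10.2 CPM in neutrophil-like cells, from 2 UMIs. Each class overlapped its neighbour in the order, and free RNA held 23.3 and 24.6 CPM in the 2 pools. Nfe2l2 and Keap1 therefore differed in how much their levels varied between classes: the highest class of Nfe2l2 was 2.08 times its median class.

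Nqo1, the quinone reductase that is a standard readout of NRF2, was scarce, with 293 UMIs in all. Its highest level was 12.1 CPM (6.61 to 20.3) in the ciliated and deuterosomal class, from 14 UMIs. That class is cluster 24 alone, 133 cells with a median of 1362 UMIs per cell. The ciliated-like clusters 0 and 9 had medians of 15012 and 16834. Secretory-like (5.77), ciliated-like (5.07) and cluster 3 cells (5.03 CPM) followed with lymphatic endothelium-like cells (6.90, from 5 UMIs). The airway classes and cluster 3 thus held most of what was counted, and the step from cluster 3 to aerocyte capillary-like cells (2.54 CPM) was the only one without overlapping intervals. In 8 of the 20 classes no UMI was counted, with upper 95% limits between 1.33 CPM in alveolar macrophage-like cells and 18.8 CPM in neutrophil-like cells. AT2-like cells, with the second largest number of cells, stood at 0.78 CPM from 37 UMIs.

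Hmox1 encodes haem oxygenase 1, which breaks down haem and is also under the repressor BACH1. Of its 1354 UMIs, 71.6% lay in AT2-like cells, which made up 21.9% of the cells and 28.4% of the UMIs. By level, alveolar macrophage-like cells came first (26.0 CPM, 20.4 to 32.8), with AT2-like (20.4, 19.1 to 21.7) and monocyte-like cells (19.3, 13.6 to 26.7) overlapping them. Interstitial macrophage-like cells had 11.8 CPM and cluster 3 had 8.20 CPM. Ciliated-like cells stood at 0.86 CPM. Hmox1 and Nqo1, both targets of NRF2, thus had different orders over the lung classes.

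The 2 subunits of glutamate-cysteine ligase, which makes the precursor of glutathione, were not spread over the classes in the same way. Gclc, the catalytic subunit, had 63776 UMIs, 64.5% of them in AT2-like cells. Cluster 3 came first with 1449 CPM (1421 to 1477; sublibraries 1382 to 1503). AT2-like cells followed with 865, secretory-like cells with 502, ciliated-like cells with 308 and the ciliated and deuterosomal class with 139 CPM, and each of these 4 steps was larger than the counting intervals. The remaining classes lay between 117 and 20.4 CPM and overlapped their neighbours. This order is that of both pools summed, and cluster 3 had 811 CPM in Cre_Neg and 1793 in Cre_Pos. In Cre_Neg alone the median cell had 485 CPM in cluster 3 and 465 in AT2-like cells. Cluster 4, a part of the AT2-like class described below, had 1412 CPM in Cre_Neg. Free RNA held 308 CPM of Gclc in Cre_Neg and 305 in Cre_Pos, so the ciliated-like level and all lower ones were at or under it, and its part in them was not tested. Gclm, the modifier subunit, was highest in ciliated-like (109 CPM, 105 to 113) and ciliated and deuterosomal cells (93.3), which overlapped, followed by secretory-like cells (56.5). In AT2-like cells Gclm stood at 19.2 CPM, rank 13 of 20, while Gclc was at rank 2 there. Free RNA held 39.5 CPM of Gclm in Cre_Neg and 27.8 in Cre_Pos, above the AT2-like level. Its part in the lower Gclm levels, and in the Gclm ratios given below, was not tested. Ciliated-like cells held 38.3% of all Gclm UMIs.

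Slc7a11 encodes the transport chain of the cystine-glutamate exchanger, which brings in cystine for glutathione. Neutrophil-like cells had 863 CPM (738 to 1003), 284 times the median class (3.04 CPM), and the next class, ciliated and deuterosomal cells, had 27.7 CPM. In Cre_Neg the neutrophil-like level was 938, 725, 756 and 540 CPM in sublibraries 1 to 4, from 133 UMIs in 59 cells. A UMI of Slc7a11 was found in 37 of these 59 cells (62.7%, 95% exact interval 49.1 to 75.0), at a median of 2765 UMIs per cell. In AT2-like cells of the same pool the share was 0.909% at a median of 11476 UMIs. The signal was thus spread over most neutrophil-like cells and was not shared by deeper cells of another type. In Cre_Pos only 4 neutrophil-like cells were found, with 36 UMIs, 23 of them in 1 cell, so the pools were not compared. Secretory-like (27.3), monocyte-like (23.0), cluster 3 (17.0) and alveolar macrophage-like cells (15.9 CPM) came next, and 4 classes had no UMI. Free RNA held 7.52 and 6.59 CPM of Slc7a11 in the 2 pools.

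Txnrd1, thioredoxin reductase 1, keeps thioredoxin reduced with NADPH. It was highest in ciliated-like cells (193 CPM, 188 to 199), above cluster 3 (147), alveolar macrophage-like (139), neutrophil-like (133), secretory-like (123) and neuroendocrine-like cells (119). Only the first step exceeded the counting intervals. The lowest levels were those of general capillary-like (29.2), B cell-like (25.9) and aerocyte capillary-like cells (19.2 CPM). Free RNA held 75.0 CPM of Txnrd1 in Cre_Neg and 60.7 in Cre_Pos, above the levels of these 3 classes, and its part in the capillary values of Txnrd1 given below was not tested. Srxn1, sulfiredoxin, repairs over-oxidized peroxiredoxins. It was highest in neuroendocrine-like cells (21.8 CPM, 17.9 to 26.4), with cluster 3 (15.4) and secretory-like cells (14.2) overlapping, and all other classes lay at or under 8.81 CPM. Epithelial classes therefore led both genes, with a different class first in each.

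G6pdx encodes glucose-6-phosphate dehydrogenase, the entry enzyme of the pentose phosphate pathway and a source of NADPH. Its level was highest in monocyte-like cells (104 CPM, 89.6 to 119), with neutrophil-like (71.5) and alveolar macrophage-like cells (69.0) next. Cluster 3 was the highest epithelial class with 49.3 CPM, followed by secretory-like (39.6) and AT2-like cells (29.6), and the ciliated and deuterosomal class was lowest with 2.59 CPM from 3 UMIs. The order of G6pdx was nearer to that of Nfe2l2 than to that of most members: over the 20 classes Pearson's r of log2(CPM + 10) was 0.73 between them. It was 0.75 between Nqo1 and Gclm. These are descriptions over classes that share pools and libraries, without a test.

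**Figure D1:**
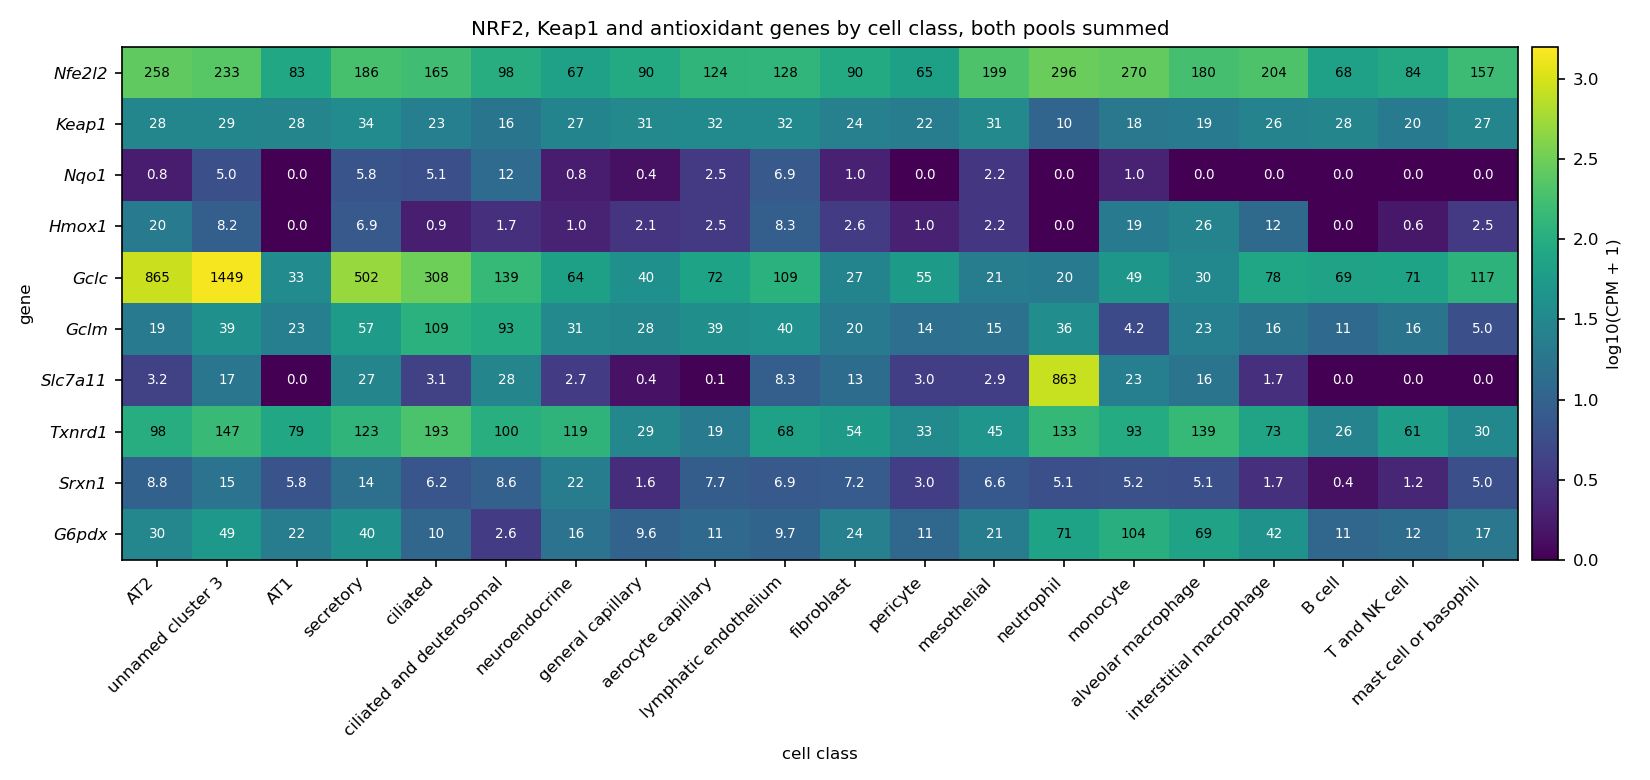
Level of each of the 10 genes (rows) in the 20 cell classes (columns), both pools summed. Colour is log10(CPM + 1) and the printed number is CPM. Gclc reaches 1449 CPM in cluster 3 and 865 in AT2-like cells, Slc7a11 reaches 863 in neutrophil-like cells, and Keap1 varies little.

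Some members share sequence or strand with other genes, and the sources used here do not say whether the counting used the strand. G6pdx overlaps Ikbkg on the opposite strand (3909 UMIs in kept cells), so reads of these 2 genes could be mixed, whereas the intronless copy G6pd2 had 0 UMIs. Eid3 lies on the same strand within Txnrd1 and had 450 UMIs. For Gclm the opposite-strand transcript Gm17494 had 348 UMIs, and for Keap1 the antisense Gm16754 had 51.

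For the 8 members with at least 1000 UMIs, the 3 genes with the most similar levels over the 19 named classes were taken from 11257 genes, by Pearson's r of log2(CPM + 10). The gene nearest to Nfe2l2 was Pgd (0.82), which encodes the next NADPH-yielding enzyme of the pentose phosphate pathway, followed by Ugt1a6a (0.79) and Myd88 (0.77). Those nearest to Gclc were Atp6v1c2 (0.89), Stx19 (0.86) and Gal3st1 (0.86). Gclm was nearest to Slc35a2, Acad11 and Porcn (all 0.87). Hmox1 was nearest to Sowahc (0.87), Lyz2 (0.81) and Plin2 (0.81), of which Lyz2 encodes lysozyme of macrophages and AT2 cells. The neighbours of G6pdx were Ptp4a1 (0.87), Klra2 (0.86) and Cebpb (0.85). Txnrd1 had Galnt3 (0.83), Gca (0.83) and Acaa1a (0.78), and Srxn1 had Sytl5 and Pclo (both 0.82), of which Pclo encodes a protein of the presynaptic zone. Keap1 had Psmd1 (0.82), Atl3 (0.81) and Mipol1 (0.81).

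Over all kept cells, where fewer cells of a type and less RNA per cell cannot be told apart, 8 of the 10 genes were lower in Cre_Pos and 3 were lower by at least 1.5-fold, the fold used throughout to count a difference. Of all 21340 genes with at least 20 UMIs, 34.3% differed by that fold. Gclm stood at 43.1, 47.8, 45.8 and 47.6 CPM in the Cre_Neg sublibraries and at 32.2, 28.1, 29.3 and 29.7 in the Cre_Pos sublibraries, without overlap (log2 ratio -0.63, 95% interval -0.71 to -0.56). Txnrd1 went from 103 to 65.4 CPM (-0.65, -0.70 to -0.60) and Slc7a11 from 6.37 to 3.34 (-0.93, -1.14 to -0.72). Gclm and Txnrd1 were highest in ciliated-like cells and Slc7a11 in neutrophil-like cells, both scarce in Cre_Pos; Nfe2l2, Hmox1 and Keap1 also had their highest level in a class that was scarce there and did not pass 1.5-fold. Without the ciliated classes, a choice made after seeing the data, Gclm was higher in Cre_Pos (24.4 against 27.5 CPM, log2 0.18) and Txnrd1 was lower by 0.26. Without neutrophil-like cells, likewise chosen afterwards, the log2 ratio of Slc7a11 was -0.69. Nfe2l2 was lower (178 and 150 CPM, log2 -0.25) and Keap1 higher (26.5 and 29.8 CPM, 0.17). Gclc (389 and 375 CPM, -0.05), Hmox1 (-0.12), Nqo1 (-0.14) and G6pdx (-0.09) lay near 0, and Srxn1 was higher by 0.27.

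Within AT2-like cells, the surfactant-producing cells that held most Gclc and Hmox1, the pools were close. The Cre_Pos level was the higher one for 8 of the 10 genes; their median log2 ratio was 0.12, beside 0.01 over all genes. Only Nqo1 passed 1.5-fold (15 and 22 UMIs, 0.59 and 1.00 CPM, log2 0.76, -0.26 to 1.81), and without sublibrary 2 its ratio was -0.02; 10.8% of all genes tested in these cells passed that fold. Hmox1 stood at 16.5, 19.9, 17.3 and 22.2 CPM in the Cre_Neg sublibraries and at 23.2, 20.9, 20.6 and 24.0 in the Cre_Pos sublibraries (log2 0.22, 0.04 to 0.41). Each sublibrary was higher in Cre_Pos, although the ranges of the pools overlapped. Gclc stood at 801, 871, 855 and 696 CPM in Cre_Neg and at 876, 861, 975 and 1012 in Cre_Pos (log2 0.19, 0.16 to 0.22), higher in 3 of 4 sublibraries. G6pdx was higher in 4 of 4 (28.1 and 31.4 CPM, 0.16, 0.01 to 0.31), with Cre_Neg sublibraries of 26.3 to 30.1 and Cre_Pos sublibraries of 29.7 to 32.1. All 3 differences were under 1.2-fold.

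The AT2-like class joined 4 clusters, and 1 of them, cluster 4, passed 7 of 8 markers of transitional alveolar cells. It held 321 of 2090 Cre_Neg and 330 of 1484 Cre_Pos cells. Gclc stood at 1412 CPM in Cre_Neg and 1372 in Cre_Pos in this cluster (log2 -0.04), above the 2 largest clusters, where it had 698 and 815 CPM (0.22, cluster 1) and 737 and 805 CPM (0.13, cluster 2). Hmox1 had ratios of 0.18 and 0.38 in these 2 clusters and -0.08 in cluster 4. Cluster 4 also had the highest Srxn1 of the class (25.6 and 20.5 CPM) and the most of its Slc7a11 (92 of 96 and 48 of 57 UMIs), while G6pdx there had 35.2 and 45.4 CPM (0.37, 0.05 to 0.69). In clusters 1 and 2 the ratios of G6pdx were -0.03 (-0.28 to 0.22) and 0.06 (-0.21 to 0.32). In the small cluster 7 it was 0.59 (-0.45 to 1.62; 20 and 16 UMIs). Srxn1 had 0.43 (-0.09 to 0.95) in cluster 1, 1.02 (0.37 to 1.69) in cluster 2 and -0.33 (-0.75 to 0.10) in cluster 4. The Gclc, G6pdx and Srxn1 levels of the whole class thus read both the level within clusters and the share of cluster 4.

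Srxn1 in AT2-like cells stood at 7.74 CPM in Cre_Neg and 10.0 in Cre_Pos (log2 0.38, 0.09 to 0.66), with the highest sublibrary in each pool at 11.1 and 13.7 CPM. The factor and its inhibitor differed little: Nfe2l2 had 263 and 252 CPM (-0.06) and Keap1 27.7 and 29.1 CPM (0.07). Txnrd1 (96.6 and 100.3 CPM, 0.05) and Gclm (19.0 and 19.5 CPM, 0.04) were likewise close. Slc7a11 shows how much 1 cell can weigh: 59 of its 96 UMIs in Cre_Neg and 31 of its 57 UMIs in Cre_Pos lay in 1 cell each. Its log2 ratio was -0.55 with all cells and 0.83 without the cell with the most UMIs, so no direction is given for it. Median UMIs per cell were 11476 in Cre_Neg and 14218 in Cre_Pos. With cells thinned to 2000 UMIs, Hmox1 was found in 3.35% of Cre_Neg and 4.93% of Cre_Pos cells (18.9% and 25.8% before thinning). The sum of 8 transitional alveolar markers was 364 CPM in Cre_Neg (319 to 421 over sublibraries) and 476 in Cre_Pos (455 to 486), and its part in these differences was not tested.

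Cluster 3 gave the largest differences in well-counted members. Gclc stood at 954, 639, 662 and 1075 CPM in the Cre_Neg sublibraries and at 1694, 2069, 1756 and 1603 in the Cre_Pos sublibraries. The pools did not overlap, and the pooled levels of 811 and 1793 CPM differed by a log2 ratio of 1.14 (1.07 to 1.22). G6pdx stood at 33.3, 33.3, 28.4 and 22.1 CPM in Cre_Neg and at 73.6, 56.9, 58.8 and 50.7 in Cre_Pos, again without overlap (2.03-fold, log2 1.02, 0.64 to 1.42). Srxn1 was the third gene past 1.5-fold (11.1 and 17.7 CPM, 27 and 80 UMIs, log2 0.68, 0.03 to 1.36), and its sublibraries overlapped (6.24 to 17.0 and 13.7 to 21.8 CPM). In this cluster 22.0% of all 11730 genes tested passed 1.5-fold. Txnrd1 was higher in each sublibrary (128 and 156 CPM, 0.28, 0.09 to 0.48).

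The other subunit of the ligase did not differ with Gclc in cluster 3: Gclm had 38.1 and 39.2 CPM (log2 0.04, -0.33 to 0.42). Nfe2l2 was slightly lower (249 and 224 CPM, -0.16, -0.30 to -0.01). Keap1 (0.39), Slc7a11 (0.30), Hmox1 (0.23) and Nqo1 (0.24) had intervals that covered 0. The median over the 10 genes was 0.29, beside 0.03 over all genes. With sublibraries joined, the median cell had 485 CPM of Gclc in Cre_Neg and 898 in Cre_Pos, and 52 of 179 and 112 of 240 cells reached 1000 CPM. Single cells of sublibraries 1 to 3 had the same order. In sublibrary 4 it was reversed: the median cell had 933 CPM in Cre_Neg and 804 in Cre_Pos. There 48.6% of 35 Cre_Neg and 40.8% of 49 Cre_Pos cells reached 1000 CPM. Thinned to 2000 UMIs, 67.4% of 172 Cre_Neg and 78.4% of 232 Cre_Pos cells had a Gclc UMI, against 91.1% and 96.2% before thinning.

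Cells of cluster 3 were not alike in the 2 pools. The sum of 8 secretory markers was 20235 CPM in Cre_Neg (15875 to 23696 over sublibraries) and 10446 in Cre_Pos (8547 to 12103). The sum of 8 AT2 markers was 4608 CPM (3115 to 5748) and 6725 (6395 to 6960), and that of 8 transitional markers 730 and 985. All these ranges were apart between the pools, and the part of this make-up in the Gclc and G6pdx differences was not tested. A split chosen after seeing the data used Chia1, the gene of an acidic chitinase. Among cells with a Chia1 UMI (28 and 123 cells) Gclc had 1022 and 2336 CPM (log2 1.19) and G6pdx 33.4 and 65.6 CPM (0.98). Among cells without one (151 and 117) Gclc had 768 and 1110 CPM (0.53) and G6pdx 28.7 and 53.0 CPM (0.88). Cells with Chia1 were thus more frequent in Cre_Pos and had more Gclc in both pools, while Gclc and G6pdx were higher in Cre_Pos on both sides of the split. Srxn1 had a ratio of 0.95 (-0.35 to 2.63) among cells with Chia1 and of 0.01 (-0.91 to 0.93; 22 UMIs in each pool) among those without, and Txnrd1 had 0.51 (0.09 to 0.96) and 0.10 (-0.15 to 0.35).

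In the same cluster, cells with Xist and no Y-linked UMIs (145 Cre_Neg and 174 Cre_Pos) gave a log2 ratio of 1.14 for Gclc, 1.32 for G6pdx and 0.77 for Srxn1. Cells with Y-linked UMIs and no Xist (16 and 44) gave 0.14 (-0.09 to 0.38) for Gclc, -0.35 (-1.27 to 0.67) for G6pdx and -1.10 (-1.60 to -0.59) for Txnrd1. The difference between pools for Gclc and G6pdx was therefore seen in the cells with Xist and was not detectable in the few cells with Y-linked UMIs; whether the 2 kinds of cell differ in it was not tested. In Cre_Pos the Gclc level was 1790 CPM in the first kind of cell and 1088 in the second, and in Cre_Neg it was 813 and 984.

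**Figure D2:**
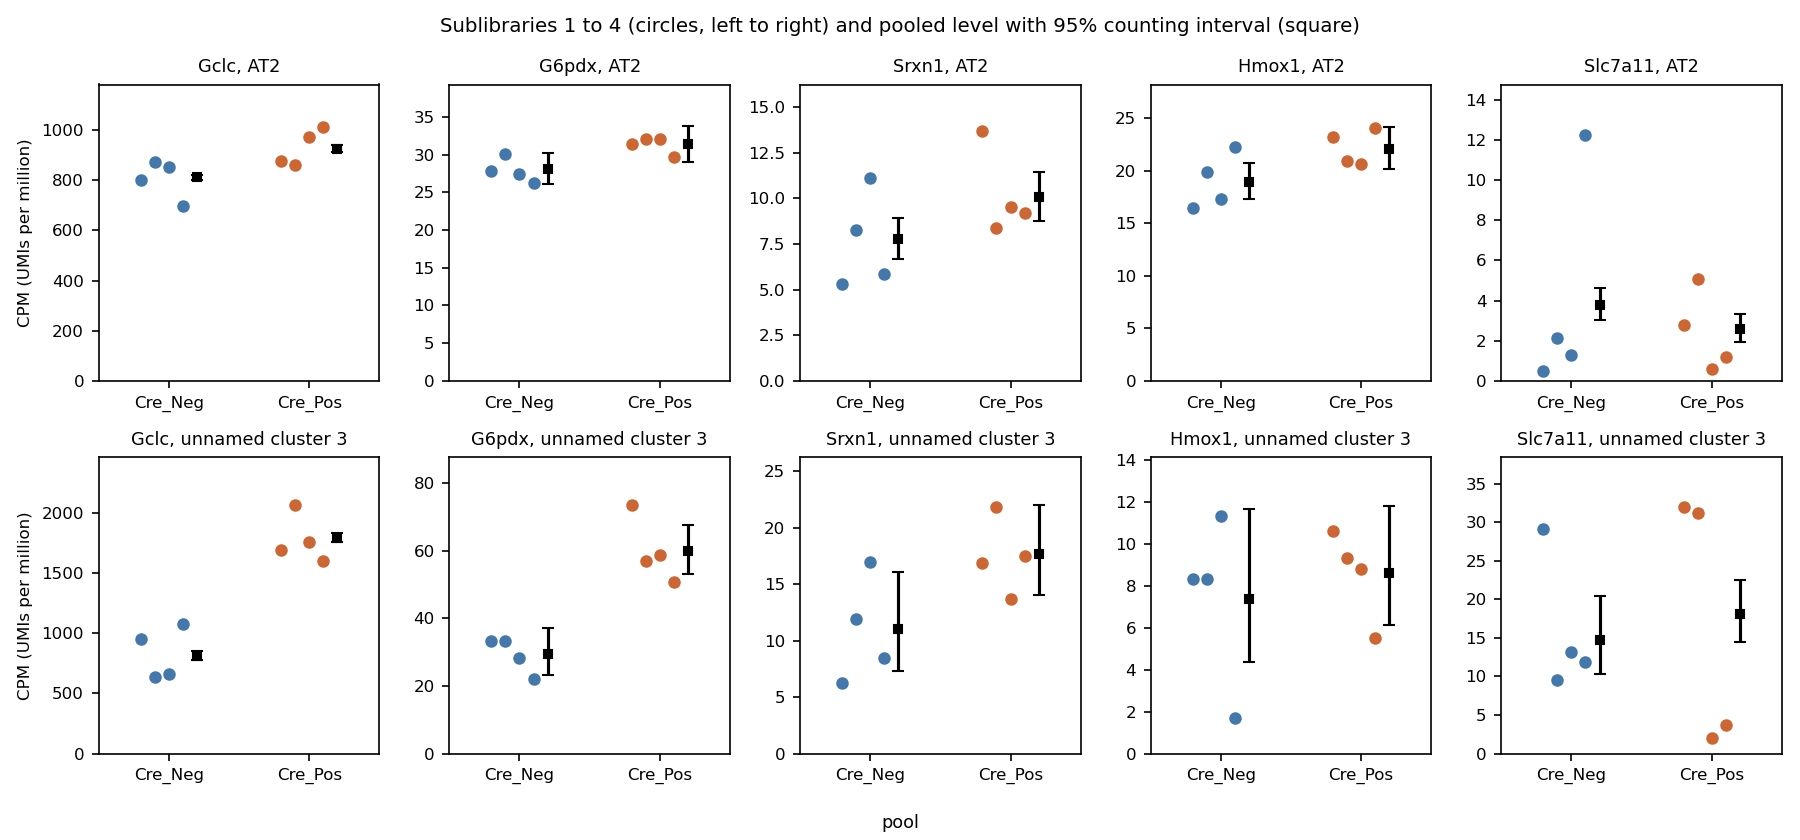
CPM (vertical axis) of 5 genes in AT2-like cells (upper row) and cluster 3 (lower row) by pool. Circles are sublibraries 1 to 4 and squares the pooled level with its 95% counting interval. Gclc and G6pdx of cluster 3 are apart between the pools, whereas 1 Cre_Neg sublibrary of AT2-like cells holds most of the Slc7a11 signal.

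In the undivided ciliated-like cells 2 of 9 measured genes passed 1.5-fold, both higher in Cre_Pos, beside 18.3% of all genes. They were Srxn1 (5.81 and 9.95 CPM, log2 0.78, 0.06 to 1.43) and Nqo1 (4.80 and 7.36 CPM, 0.62, -0.22 to 1.37), with 23 and 17 UMIs in Cre_Pos. Without sublibrary 3 neither passed, and Nqo1 turned to -0.17. The well-counted genes were close: Txnrd1 had 192 and 205 CPM (0.09), Gclc 311 and 283 (-0.13), Gclm 110 and 97.4 (-0.18) and Nfe2l2 164 and 174 (0.08). The class joined clusters 0 (665 and 82 cells) and 9 (537 and 38 cells), and in Cre_Neg Txnrd1 had 250 CPM in cluster 0 and 129 in cluster 9. Gclc had a ratio of -0.03 in cluster 0 and -0.43 (-0.65 to -0.21) in cluster 9, and Srxn1 1.12 (0.31 to 1.87) and -0.54 (-2.86 to 1.09; 3 Cre_Pos UMIs). As given above, this comparison sets mostly cells with Xist against mostly cells with Y-linked UMIs.

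Within the Cre_Neg pool alone, ciliated-like cells with Y-linked UMIs had higher levels than those with Xist for all 9 measured genes. The median log2 ratio was 0.48, beside 0.00 over all genes, and 4 genes passed 1.5-fold where 16.1% of all genes did. Nqo1 stood at 3.68, 2.55, 3.29 and 3.47 CPM in cells with Xist and at 6.44, 13.9, 16.1 and 11.2 in cells with Y-linked UMIs (3.84-fold, log2 1.94, 1.29 to 2.59). Txnrd1 stood at 183, 162, 177 and 156 CPM and at 268, 297, 338 and 290 (log2 0.83, 0.72 to 0.94). In both genes the 2 kinds of cell did not overlap over the sublibraries. Srxn1 had 5.04 and 10.3 CPM (1.03, 0.39 to 1.64) and G6pdx 9.60 and 14.7 CPM (0.61, 0.10 to 1.10).

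The ligase subunits followed with smaller differences. Gclc stood at 305, 290, 297 and 265 CPM in cells with Xist and at 455, 372, 393 and 408 in cells with Y-linked UMIs (log2 0.48, 0.39 to 0.57), without overlap. Gclm had 105 and 134 CPM (0.36, 0.20 to 0.51) and was higher in each sublibrary. Nfe2l2 had 160 and 188 CPM (0.24, 0.11 to 0.37), higher in 3 of 4. Keap1 (0.10) and Slc7a11 (0.24) had intervals that covered 0. These comparisons were added after the data were seen, and which mice the 177 cells came from is not known. Clusters 0 and 9 of this class also differed within Cre_Neg, with Txnrd1 at 250 and 129 CPM and Nqo1 at 5.83 and 3.69, while Gclm had 109 and 112. How cells with Xist and cells with Y-linked UMIs divide over these clusters is not given, and its part in the values was not tested.

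Among ciliated-like cells with Y-linked UMIs only, 177 Cre_Neg and 101 Cre_Pos cells could be set side by side. Here 7 of 8 measured genes were lower in Cre_Pos, the median was -0.48 beside 0.03 over all genes, and 1 gene, Nqo1, passed 1.5-fold where 15.7% of all genes did. Gclc stood at 265, 271, 315 and 260 CPM in the Cre_Pos sublibraries, each under the Cre_Neg values above (log2 -0.53, -0.68 to -0.39). Txnrd1 stood at 234, 194, 209 and 213 CPM (-0.50, -0.67 to -0.33) and Gclm at 99.0, 88.9, 110 and 84.7 CPM (-0.47, -0.72 to -0.22). All 3 were below the lowest Cre_Neg sublibrary of the same kind of cell. Nqo1 had 12.2 and 6.23 CPM (-0.97, -2.04 to -0.01) and G6pdx 14.7 and 9.86 (-0.58, -1.43 to 0.22), each lower in 4 of 4. Nfe2l2 (-0.09), Keap1 (0.09) and Srxn1 (-0.07) had intervals that covered 0. The Cre_Pos levels of Gclc (280 CPM) and Gclm (97.0 CPM) in these cells lay near those of the Cre_Neg cells with Xist (290 and 105 CPM), as did G6pdx. Other members did not: Txnrd1 lay above each Cre_Neg sublibrary of cells with Xist, and the pooled levels of Nqo1 and Srxn1 were also higher than in those cells. Only 3 Cre_Pos cells with Xist were present, too few to compare.

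**Figure D3:**
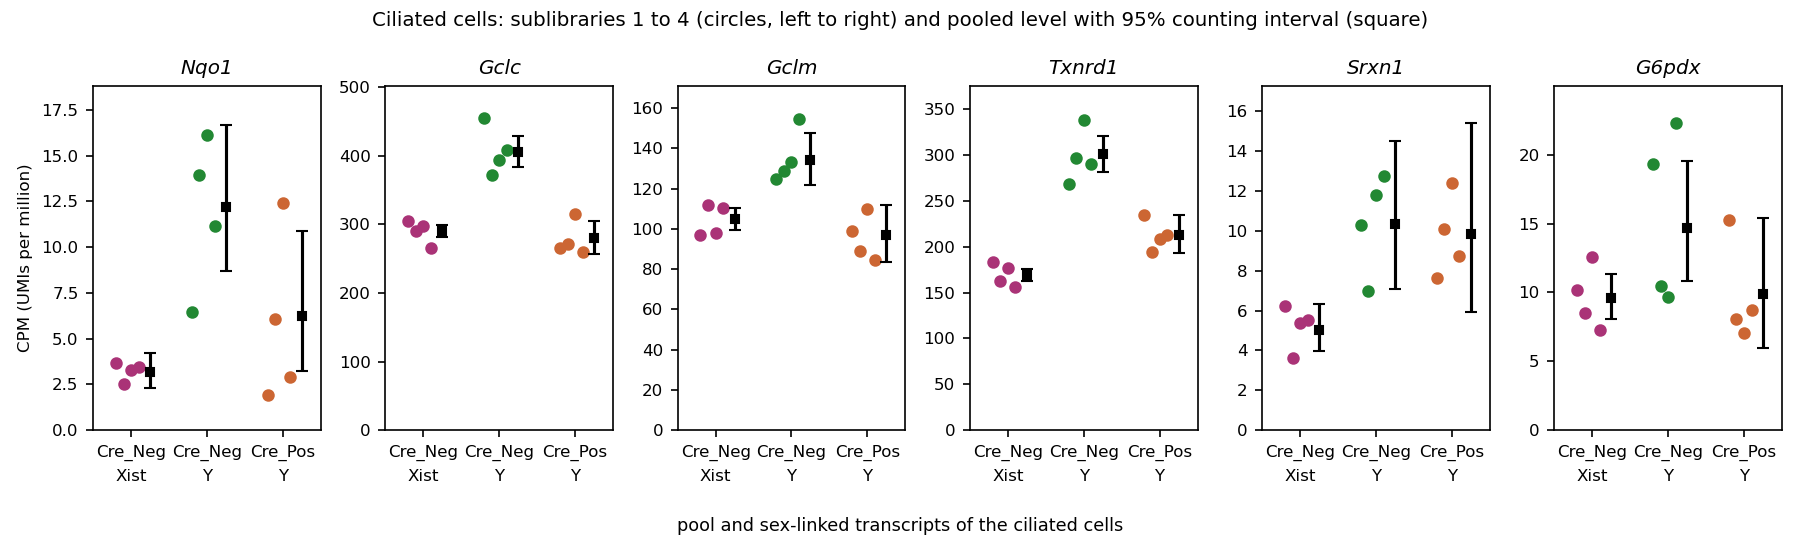
CPM (vertical axes, each from 0) of 6 genes in ciliated-like cells of Cre_Neg with Xist UMIs, Cre_Neg with Y-linked UMIs and Cre_Pos with Y-linked UMIs. Circles are sublibraries 1 to 4 and squares the pooled level with its 95% counting interval. For Gclc and Txnrd1 the middle group lies above both others in each sublibrary.

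The same split in AT2-like cells of Cre_Neg (1489 cells with Xist and 390 with Y-linked UMIs) gave another picture. Gclc was at 821 CPM in both (log2 0.00, -0.05 to 0.05) and Txnrd1 at 95.4 and 96.1 CPM (0.01). Nfe2l2 was higher in cells with Y-linked UMIs in each sublibrary, at 253, 247, 247 and 252 against 295, 311, 335 and 311 CPM (0.33, 0.25 to 0.42). Only Slc7a11 passed 1.5-fold among 9 measured genes, through the 1 cell named above, beside 15.4% of all genes. In general capillary-like cells of Cre_Neg, Gclc had 31.1 and 52.0 CPM (0.74, 0.41 to 1.06) and Txnrd1 23.3 and 38.5 (0.72, 0.33 to 1.10). In aerocyte capillary-like cells Txnrd1 had 12.4 and 34.8 CPM (1.49, 0.66 to 2.27) and Gclc 68.7 and 101 (0.56, 0.12 to 0.97). The higher Txnrd1 of cells with Y-linked UMIs was thus seen in ciliated-like and both capillary classes and not in AT2-like cells; whether the classes differ in this was not tested.

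Between pools, AT2-like cells with Xist (1489 and 1191) had log2 ratios of 0.19 for Gclc and 0.31 (0.10 to 0.53) for Hmox1. AT2-like cells with Y-linked UMIs (390 and 162) had -0.03 for Gclc and -0.63 for Hmox1 (110 and 35 UMIs, -1.22 to -0.07). Gclm was lower in each sublibrary of these cells (91 and 27 UMIs, -0.73, -1.41 to -0.10), against 0.05 in cells with Xist. The ratio of Nfe2l2 was -0.03 and -0.08 in the 2 kinds of cell.

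**Figure D4:**
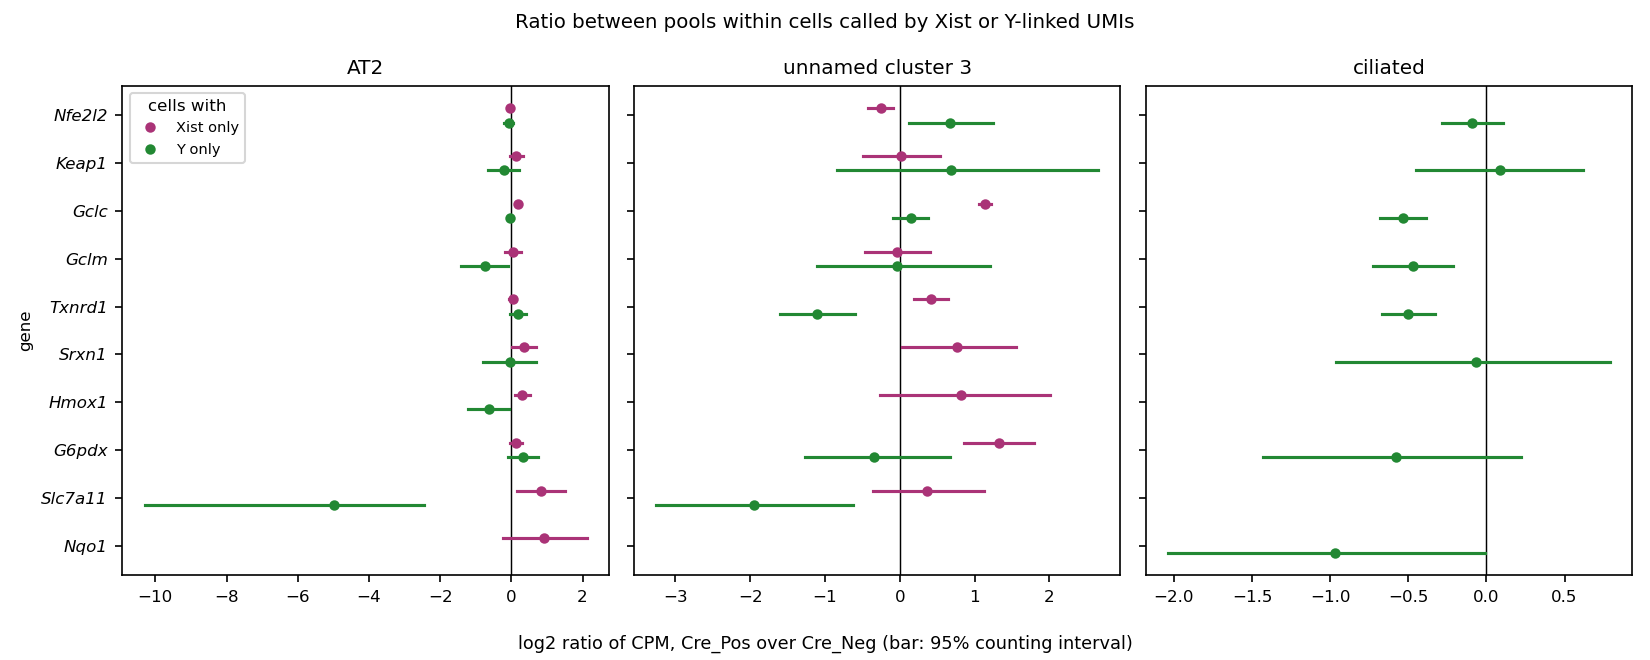
Log2 ratio of CPM, Cre_Pos over Cre_Neg (horizontal axis), for the 10 genes in AT2-like cells, cluster 3 and ciliated-like cells, separately for cells with Xist and cells with Y-linked UMIs. Bars are 95% counting intervals, and genes under 20 UMIs or cell groups under 10 cells are left out. In cluster 3 Gclc lies at 1.14 in cells with Xist and at 0.14 in cells with Y-linked UMIs.

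The endothelium is not a known target of the Shh-driven Cre. The general capillary-like class includes the clusters with venous and arterial markers named above. In general capillary-like cells 1 of 8 measured genes passed 1.5-fold, Srxn1 (15 and 58 UMIs, 1.14 and 1.78 CPM, log2 0.64, -0.20 to 1.56), beside 10.5% of all genes. Free RNA held 6.77 CPM of Srxn1 in Cre_Neg and 4.71 in Cre_Pos, above these levels, and its part was not tested. Txnrd1 stood at 27.1, 27.1, 25.4 and 24.6 CPM in Cre_Neg and at 29.6, 27.7, 33.0 and 32.5 in Cre_Pos (0.23, 0.05 to 0.41). Gclc had 35.6 and 41.4 CPM (0.22, 0.07 to 0.37) and was higher in each sublibrary. Gclm (0.06), Nfe2l2 (0.08) and Keap1 (-0.03) were close, and Hmox1 (0.31) and G6pdx (0.21) had intervals that covered 0. In cells with Xist the ratios were 0.42 for Gclc and 0.44 for Txnrd1, and in cells with Y-linked UMIs (295 and 114 cells) -1.09 (-1.84 to -0.40) and -0.80 (-1.60 to -0.06).

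In aerocyte capillary-like cells, the large capillary cells of gas exchange, 2 of 9 genes passed 1.5-fold beside 11.4% of all genes. Nqo1 had 6 and 38 UMIs (1.22 and 3.06 CPM, log2 1.33, 0.08 to 2.87) and its sublibraries did not overlap (0.85 to 1.69 and 2.69 to 4.03 CPM). Srxn1 had 5.27 and 8.70 CPM (0.72, 0.10 to 1.40) and Txnrd1 14.8 and 21.0 CPM (0.50, 0.12 to 0.90), both higher in each sublibrary. In cells with Xist (427 and 1026 cells) the ratio of Txnrd1 was 0.75 (0.29 to 1.23), and in cells with Y-linked UMIs (58 and 42 cells, 20 and 4 UMIs) it was -1.95 (-3.96 to -0.37). Nfe2l2 (123 and 124 CPM, 0.01) and Gclc (69.9 and 72.4 CPM, 0.05) were close, Keap1 had 0.23, and G6pdx (-0.33, -0.77 to 0.12) was lower in each sublibrary. Counts of Nqo1 and Srxn1 were small in both capillary classes.

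**Figure D5:**
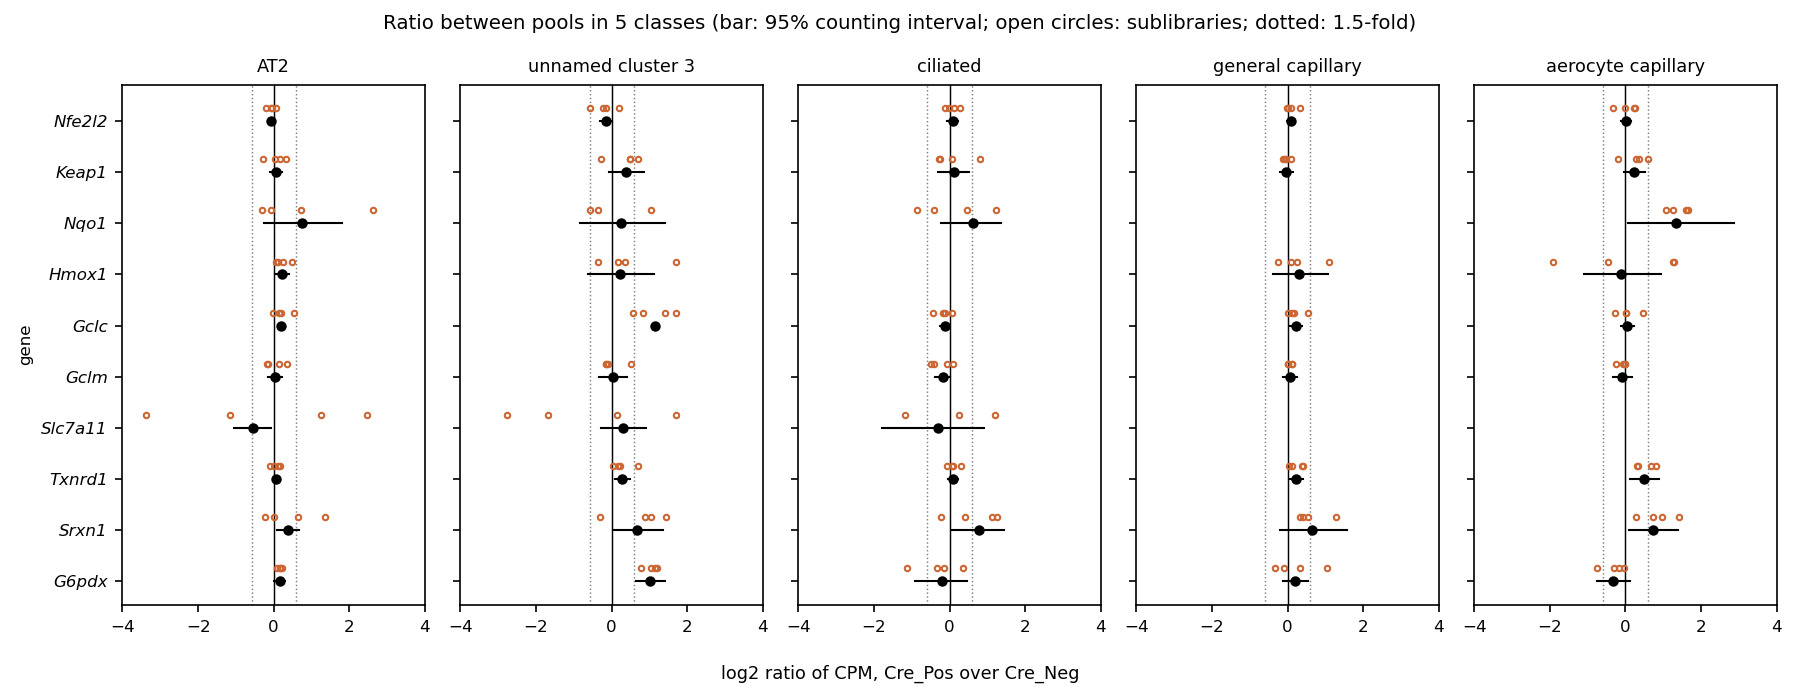
Log2 ratio of CPM, Cre_Pos over Cre_Neg (horizontal axis), of the 10 genes in 5 classes. Points are pooled values with 95% counting intervals, open circles the sublibraries in which both pools had UMIs, and dotted lines 1.5-fold; genes under 20 UMIs are left out. Gclc (1.14) and G6pdx (1.02) of cluster 3 lie furthest from 0 among genes with narrow intervals.

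In the smaller classes the counts allowed fewer genes. In neuroendocrine-like cells, where Srxn1 was highest, it had 17.0 and 24.4 CPM (log2 0.53, -0.11 to 1.20), Txnrd1 had 105 and 127 CPM (0.27, 0.01 to 0.53), and the ratios of Keap1 (0.43), G6pdx (0.32), Gclm (0.25), Gclc (0.18) and Nfe2l2 (0.09) had intervals that covered 0. In monocyte-like cells Nfe2l2 stood at 193, 252, 147 and 244 CPM in Cre_Neg and at 428, 314, 321 and 219 in Cre_Pos (0.59, 0.33 to 0.85), with overlap. Slc7a11 had 7 and 37 UMIs there, 20 of the 37 in 1 cell. In fibroblast-like cells all 8 measured genes lay between -0.30 (Txnrd1) and 0.14 (Gclm). In B cell-like cells Gclm had 10 and 18 UMIs (1.20, 0.00 to 2.47) and G6pdx 18 and 8 UMIs (-0.82, -2.23 to 0.45).

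The wider pathway was described with 67 further genes in 9 lists. Genes named at the ends of a list are those with at least 100 UMIs in AT2-like cells. In AT2-like cells 61 had at least 20 UMIs; 35 were higher and 26 lower in Cre_Pos, 2 passed 1.5-fold upwards (Gpx3 and Nfe2, each under 30 UMIs) and 1 downwards, and the median was 0.03. Over all genes in these cells 52.3% were higher and 10.8% passed that fold in either direction. The 5 genes of NADPH supply were all higher (median 0.16), from Pgd (60.7 and 74.4 CPM, 0.29, 0.19 to 0.39) to Idh1 (0.07), in the same direction as G6pdx. Of 9 genes of glutathione synthesis and use 7 were higher (median 0.13), from Gpx4, the lipid peroxide reductase (0.31), to Ggt5 (-0.19). Of 10 detoxification genes 8 were higher, from the aldo-keto reductase Akr1b8 (12.1 and 17.8 CPM, 0.55, 0.33 to 0.77) to the carbonyl reductase Cbr1 (-0.11).

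Other lists in AT2-like cells went the other way or both ways. Of 6 glutathione transferases 5 were lower (median -0.14), from Gstm2 (-0.39) to Gstp1 (0.22). In the thioredoxin list 6 of 9 were lower: Prdx6, a peroxiredoxin that also acts as a phospholipase on surfactant lipids, passed 1.5-fold (122 and 81.0 CPM, -0.59, -0.68 to -0.51), Txnip had -0.30 and Txn2 0.35. Among partners and related factors 4 were higher and 4 lower, with Mafk (0.26) and Bach2 (-0.24) at the ends. Genes of NRF2 turnover lay between -0.15 (Sesn2) and 0.07 (Btrc). Haem and iron genes lay between -0.08 (Blvrb) and 0.18 (Blvra), and catalase (Cat, 260 and 227 CPM) had -0.20 and Sod2 0.07.

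In cluster 3, where Gclc and G6pdx were higher in Cre_Pos, the wider lists leaned the other way: 22 of 60 measured genes were higher, 38 lower, 7 passed 1.5-fold upwards and 11 downwards. Over all genes in this cluster 53.7% were higher and 22.0% passed 1.5-fold in either direction. Of 7 glutathione transferases 6 were lower (median -0.76), among them Gsta3 (172 and 98.1 CPM, -0.81) and Gstm1 (124 and 66.4 CPM, -0.90), and Prdx6 had 450 and 265 CPM (-0.76). Gss, the second enzyme of glutathione synthesis, was lower (45.9 and 21.7 CPM, -1.08, -1.49 to -0.68). Akr1b8 was higher (10.3 and 32.1 CPM, 1.65, 1.03 to 2.32) and Aldh3a1 lower (28.3 and 9.52 CPM, -1.57). The genes of the NRF2 lists in this cluster thus differed between the pools in both directions. The secretory marker sums given above were lower in Cre_Pos in the same cells, and their part in these values was not tested. In ciliated-like cells 32 of 60 list genes were higher and 28 lower, with a median of 0.01.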

How the data were processed

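The authors deposited 1 table of raw UMI counts per barcode and gene for the whole series, with a cell table and a gene table. Libraries were made with the Evercode WT kit, version 2, per the labels' protocols. The build is GRCm39 per the submitters' processing notes and mm10 per the file headers, so no coordinates were taken from the files; which aligner or counter was run is not given here. Pool and sublibrary were read from the cell table, and the 4 sublibraries are technical aliquots without separate animals.

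Barcodes under 500 genes or above 15% mitochondrial UMIs were left out; 185 doublets (1.12% of 16541 cells) were called sublibrary by sublibrary and removed. Clustering used scanpy 1.11.5 (3000 variable genes, 30 components, 15 neighbours, Leiden resolution 1). A cluster was named when at least 3 markers of 1 type were at least 4-fold above the other cells, and T with NK, the fibroblast types and ciliated with deuterosomal cells were joined; these limits and joins were set after the clusters were seen. Levels are UMIs per 1e6 UMIs of the class (CPM) with exact Poisson intervals, ratios have exact conditional binomial intervals, and shares have Clopper-Pearson intervals. Classes with at least 100 cells in each pool and genes with at least 20 UMIs were compared, without a test. Depth, 7084 to 10368 median UMIs per cell over the pools and sublibraries, limits the scarce genes. Where genes past a fold were counted, a pool at 0 was set to a floor of 3 counts. All 10 members are named in each class; list genes are named at the ends of each list or past 1.5-fold with at least 100 UMIs in AT2-like cells, and those named in cluster 3 were chosen after their values were seen. One gene among those with levels most like Srxn1 is not reported here. The members and lists were chosen with earlier results of these data known. Alternatives covered the denominator, filters, fold, sex-linked transcripts, resolution and each sublibrary left out.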

Additional observations from a re-analysis of the deposited data

Results flagged for a closer look

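Txnrd1 over all kept Cre_Pos cells stood at 62.3 CPM in sublibrary 2, apart from 66.7, 67.0 and 66.5 CPM in the others. In aerocyte capillary-like cells of the same pool Txnrd1 stood at 15.7 CPM in sublibrary 2, apart from 23.2, 23.2 and 23.0 CPM. These were the 2 groups of 4 sublibraries, of 78 examined, in which 1 value lay that far from the rest, and chance alone gives about 1 in 20. Gclm was higher in Cre_Pos in all 4 sublibraries of general capillary-like cells (log2 0.062) and lower in all 4 of aerocyte capillary-like cells (log2 -0.080). Both differences were small, and the difference between the classes was not tested.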

How the results depend on the processing

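No paired analysis was possible because each genotype was 1 pool; sublibraries pair technical aliquots only, and their own ratios are read as counts of sublibraries. Of 755 values of single genes under the alternatives 67 changed sign. In cells with Y-linked UMIs 23 of 45 values changed sign, and in cells with Xist 8 of 55. Number of genes past 1.5-fold: with a 2-fold limit it was 0 over all kept cells, AT2-like, ciliated-like and general capillary-like cells and 1 in aerocyte capillary-like cells. With a minimum of 100 UMIs it was 0 in AT2-like and general capillary-like and 1 in aerocyte capillary-like cells; without a minimum it was 3 and with at least 1000 genes per cell 0 in general capillary-like cells. In cells with Xist it was 2 in AT2-like and 6 in ciliated-like cells (3 Cre_Pos cells), and in cells with Y-linked UMIs 1 over all kept cells, 3 in AT2-like, 1 in ciliated-like and 3 in general capillary-like cells. Of all genes in ciliated-like cells with Y-linked UMIs, 15.7% passed 1.5-fold. For the other counts in this paragraph the share of all genes is not given. These counts are therefore not read as results about the members. Median log2 ratio: over all kept cells it was -0.074 when centred on all genes, -0.31 as a mean over cells and -0.013 in cells with Y-linked UMIs. In cells with Y-linked UMIs it was also -0.078 in AT2-like cells, -0.036 in cluster 3, -0.48 in ciliated-like and -0.37 in general capillary-like cells; in ciliated-like cells with Xist it was 0.52, and as a mean over cells it was 0.25 in aerocyte capillary-like cells. Leaving out each sublibrary gave counts of 2 to 3 over all kept cells, 1 to 2 in AT2-like, 2 to 4 in cluster 3, 0 to 3 in ciliated-like, 0 to 1 in general capillary-like and 2 to 3 in aerocyte capillary-like cells. The medians ranged from -0.16 to -0.12, 0.02 to 0.17, 0.29 to 0.45, -0.11 (without sublibrary 2) to 0.11, 0.081 (without sublibrary 3) to 0.27, and -0.06 to 0.16 in the same order. Among genes past 1.5-fold, the sign changed for Nqo1 in AT2-like cells without sublibrary 2 (-0.020; range 1.18 down to this over the 4) and in ciliated-like cells without sublibrary 3 (-0.17, against up to 0.85) or with Y-linked UMIs (-0.97), for Srxn1 in ciliated-like cells (-0.066) and G6pdx in cluster 3 (-0.35) with Y-linked UMIs, and for Gclm over all kept cells without the ciliated classes (0.18, chosen after seeing the data). Among genes under 1.5-fold, signs that changed in cells with Y-linked UMIs include Txnrd1 in aerocyte capillary-like cells (-1.95), cluster 3 (-1.10) and general capillary-like cells (-0.80), Gclc in general capillary-like cells (-1.09), and Hmox1 (-0.63) and Gclm (-0.73) in AT2-like cells. The cause was not tested. Genes under about 20 UMIs in a class are limited by depth.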
